A study of Mus musculus with 4 samples.

Results

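The Lgr5- tuft marker+ population of mouse intestinal tumours was set against the 3 other sorted populations of the same tumours, 1 array each, so this population supplied 1 of 4 arrays. Genes were taken as apart where their level on the Lgr5- tuft marker+ array lay at least 1 log2 (2-fold) above, or at least 1 log2 below, the level on every other array, with a signal well above background on the higher side. This held for 693 genes on the higher side and 441 genes on the lower side, out of 18506 genes well above background on at least 1 array. All 4 populations came from EpCAM+ epithelial cells of intestinal tumours in mice of genotype Lgr5CreERT2/+; Ctnnb1lox(ex3)/ox(ex3) (as the labels write it), collected 14 days after tamoxifen. In these mice tamoxifen lets the Cre recombinase made in Lgr5-expressing cells remove exon 3 of Ctnnb1, the beta-catenin gene, and the other 3 arrays share that genotype and that treatment. The sort used Lgr5 and IL17RB, the receptor for IL-25 that served as the tuft marker. The populations were Lgr5- tuft marker+ (called tuft-only here), Lgr5+ tuft marker+ (double-positive), Lgr5+ tuft marker- (Lgr5-only) and Lgr5- tuft marker- (double-negative). No group was a normal tissue, no array was repeated, and the labels do not say how many mice were pooled.

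Tuft cells, a scarce epithelial type, sense the contents of the gut with taste-signalling proteins and respond to parasites and microbial products by releasing IL-25 and lipid mediators. Lgr5 marks the stem cells at the base of intestinal crypts, which give rise to tuft cells and to absorptive, goblet, Paneth and enteroendocrine cells. Collagens, elastin and the enzymes that crosslink and cut them are mostly made by fibroblasts and other mesenchymal cells, and chemokines by many cell types, macrophages among them.

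Each array measured 56005 probes from 13 ng of total RNA in a single colour, and a gene's level is the log2 of its probe's signal relative to the 75th percentile of its array. Of these probes, 32629 could be given 1 of 22740 gene names. Between 60.2% and 69.0% of spots were well above background, no spot was saturated, and the 4 arrays shared 1 slide. The lowest level called well above background was -3.67 on the tuft-only array, -3.43 on the double-positive array, -3.87 on the Lgr5-only array and -3.70 on the double-negative array. Where a gene was not well above background on the dimmer array, its fold is a lower limit, written "at least". With 1 array per population no test between populations is possible and no p-value is given. The only error available is technical, with a median scanner error of 0.22 log2 for a difference between 2 arrays and a median SD of 0.055 to 0.064 log2 among the 10 copies of a probe on 1 array. Neither includes the spread between mice or between sorts.

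The sort genes followed the labels. Il17rb stood at 0.11 on the tuft-only array, against -0.39 on the double-positive array and -3.14 on the Lgr5-only array, and was not well above background on the double-negative array. It was thus high in both tuft marker+ populations and low in both tuft marker- ones, and served as a criterion of the sort. Lgr5 was not well above background on the tuft-only array, against -0.80 on the double-positive array, -0.81 on the Lgr5-only array and -3.20 on the double-negative array. Epcam, the epithelial adhesion gene used to gate all cells, was at 4.50 on the tuft-only array, against 5.01, 5.21 and 5.55 on the double-positive, Lgr5-only and double-negative arrays, and was thus lowest in tuft-only cells. Ctnnb1 was likewise lowest there, at 4.37 against 5.06, 4.95 and 5.22 on the same arrays.

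The 693 genes made up 3.74% of measured genes and the 441 genes made up 2.38%. The same rule applied to each other array found fewer genes, with 267 higher and 158 lower on the double-positive array, 193 higher and 200 lower on the Lgr5-only array, and 233 higher and 192 lower on the double-negative array. Higher genes made up 61.1% of the tuft-only array's genes on both sides. That split depended on how the signals were processed, at 36.4% with scaling to the median, 83.5% in the authors' scaled values and 76.6% after normexp background correction together with quantile normalization.

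**Figure D1:**
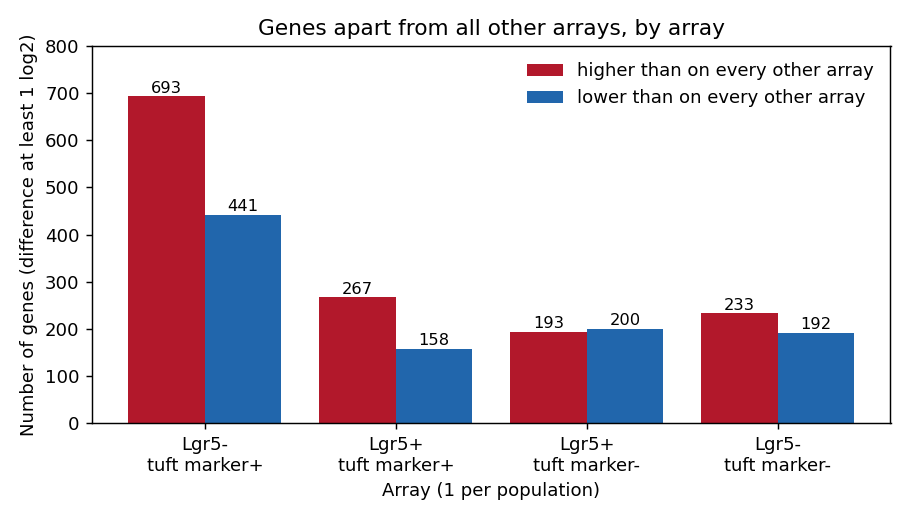
Number of genes at least 1 log2 higher (red bars) or lower (blue bars) on 1 array than on every other array, by population, out of 18506 measured genes. The Lgr5- tuft marker+ array has 693 higher and 441 lower genes, more on both sides than any of the 3 other arrays, each of which is a single library without error bars.

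Of the 693 higher genes, 278 were well above background on all 4 arrays. Among these the array closest in level was the double-positive one for 169 genes (60.8%), the Lgr5-only one for 83 and the double-negative one for 26, and for 149 (53.6%) the 3 other arrays lay within 1 log2 of each other. Over all 693 the same counts were 456 (65.8%), 180 and 57 for the closest array and 421 for the 3 other arrays within 1 log2. These include 121 genes above background on the tuft-only array alone, which carry no order among the other arrays, because their levels there are mostly the lowest measurable, highest on the double-positive array. For 120 of the 121 the double-positive array was the closest, and for all 121 the 3 other arrays lay within 1 log2. For 163 of the 693 the double-positive array came second by at least 1 log2 over both remaining arrays, a stepwise order in which both tuft marker+ populations were above both tuft marker- ones. The smallest of the 3 differences had a median of 1.30 log2, reached 2 log2 in 87 genes and 3 log2 in 4 genes, Cyp1b1, Ackr3, Eln and Chl1. The 441 lower genes had no such favoured neighbour, since the closest array was the double-positive one for 172, the Lgr5-only one for 144 and the double-negative one for 125. Here the median distance to the closest array was 1.23 log2, and 366 of the genes had the 3 other arrays within 1 log2 of each other.

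One block of higher genes with a shared role encoded the extracellular matrix. Of 17 measured genes for fibrillar and basement membrane collagens, 10 were higher on the tuft-only array than on every other array and none was lower, with list medians of 1.39, 1.67 and 1.75 log2 over the double-positive, Lgr5-only and double-negative arrays. The medians over all genes in the same comparisons were 0.05, 0.02 and 0.08 log2. Col3a1, the fibrillar type III collagen of soft tissues, stood at 3.32 on the tuft-only array, against 0.56 on the double-positive array, -2.63 on the Lgr5-only array and -1.62 on the double-negative array. It was 6.77-fold above its nearest neighbour, the double-positive array, with a scanner error of 0.20 log2. Col1a2, a chain of type I collagen, was at 3.58 in tuft-only cells, against 1.71, -1.01 and -0.75 on the double-positive, Lgr5-only and double-negative arrays. Its partner Col1a1 was at 0.97, against -0.52, -2.31 and -2.33 on the same arrays. All 3 of these fibrillar collagen genes followed one order, tuft-only first, double-positive second, and both tuft marker- populations far below.

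Col4a1, a chain of basement membrane collagen, was at -0.49 on the tuft-only array and not well above background on the 3 others, a difference of at least 7.65-fold. Col12a1, a collagen that sits on the surface of fibrils, was at -0.89 and also not well above background elsewhere, at least 5.82-fold higher. Col2a1, best known from cartilage, stood at 1.20 on the tuft-only array, against -1.47, -2.49 and -2.99 on the double-positive, Lgr5-only and double-negative arrays. Not all collagens differed, since Col6a3 was at -3.04, against -2.68, -2.93 and -2.75 on the same arrays, and Col14a1 was not well above background on the tuft-only array, nor on the double-positive and Lgr5-only ones. Over all measured genes named as collagen chains, 12 of 35 (34.3%) were higher and none was lower.

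Matrix glycoproteins and proteoglycans gave the highest count of a matrix list, 15 of 29 higher and none lower, with medians of 1.65, 2.39 and 2.36 log2 over the double-positive, Lgr5-only and double-negative arrays. Eln, which encodes elastin, was at 0.93 on the tuft-only array, against -2.26, -2.20 and -2.42 on the double-positive, Lgr5-only and double-negative arrays. The 3 other arrays were nearly level for Eln, and the tuft-only array was 8.81-fold above the highest of them. Mgp, the matrix Gla protein that restrains calcification, was at 2.35, against 0.11, -3.30 and -2.28. Sparc, a collagen-binding protein of remodelling tissue, was at 2.58, against 0.35, -2.31 and -1.56. Both kept the double-positive array in second place. Fbn1, the fibrillin gene of elastic microfibrils, was at 1.16 on the tuft-only array, against -1.40 on the double-positive array and -2.50 on the double-negative array, and was not well above background on the Lgr5-only array. Lum, for the proteoglycan lumican, was at -0.51 and not well above background on any other array, at least 7.56-fold higher. Mfap2 and Fmod were among the list's genes that were not apart, with Fmod at 0.02 in tuft-only cells, against 0.04, 0.71 and -0.11 on the double-positive, Lgr5-only and double-negative arrays.

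Of 16 genes for collagen processing and crosslinking, 5 were higher (Lox, Loxl1, Loxl3, Pcolce and Serpinh1). Lox, the lysyl oxidase that crosslinks collagen and elastin, was at -0.55 on the tuft-only array and not well above background on the 3 others, at least 7.36-fold higher. Serpinh1, the collagen chaperone of the endoplasmic reticulum, was at 0.15, against -1.66, -2.52 and -2.30 on the double-positive, Lgr5-only and double-negative arrays. Fstl1, a secreted follistatin-like glycoprotein, was at 2.76, against 0.51, -0.33 and -0.62, and was 4.77-fold above its nearest array.

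**Figure D2:**
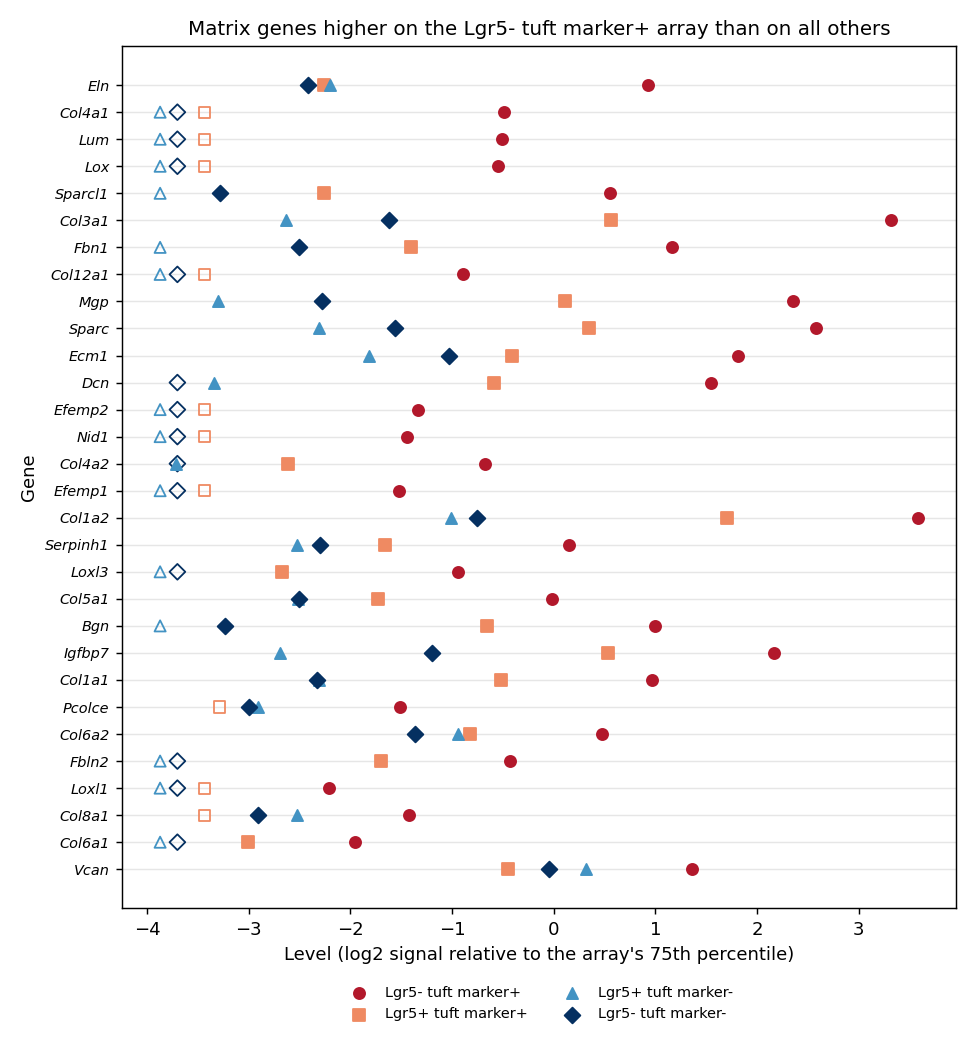
Level on the horizontal axis (log2 signal relative to the array's 75th percentile) of the 30 matrix genes higher on the Lgr5- tuft marker+ array than on all others, 1 row per gene, sorted by the distance to the nearest array. Filled symbols are well above background and open symbols are not, drawn at the lowest level measurable there or at the gene's own signal; the red circles lie to the right in every row, and the Lgr5+ tuft marker+ squares are often second.

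Genes that cut the matrix were higher as well. Of 24 matrix proteases and inhibitors, 10 were higher on the tuft-only array than on every other and 1, the Paneth cell protease gene Mmp7, was lower. Mmp13, a collagenase, was at -0.36 on the tuft-only array, against -2.63 on the double-positive array, and was not well above background on both tuft marker- arrays. Mmp10, the protease stromelysin 2, was at -1.61 on the tuft-only array, against -3.50 on the double-negative array, and was not well above background on the other 2 arrays. Mmp2 and Mmp9, for the gelatinases, were at -1.09 and -1.94 on the tuft-only array and not well above background on the 3 others, at least 3.95-fold and 2.81-fold higher. Plau, the urokinase gene, was at 2.41 in tuft-only cells, against 0.93 on the double-positive array, -2.84 on the Lgr5-only array and -2.99 on the double-negative array. Plat, for the other plasminogen activator, was not apart, at -3.23 against -1.97, -3.27 and -2.68 on those arrays.

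Mmp13 and Mmp10 both lie on chromosome 9, as does the lower gene Mmp7, and are among 6 matrix metalloproteinase genes higher on the tuft-only array. The promoters of Mmp13 and Mmp10 are shown as examples that hold both sets of letters marked below. These are RefSeq sequences of build GRCm38.p6 on the plus strand, from 80 bases before to 20 bases after the start of the gene, at chr9:7272434-7272533 for Mmp13 and chr9:7502262-7502361 for Mmp10. Capitals mark TGANTCA, the letters of the AP-1 site, and TATAAA, those of the TATA box.
Mmp13: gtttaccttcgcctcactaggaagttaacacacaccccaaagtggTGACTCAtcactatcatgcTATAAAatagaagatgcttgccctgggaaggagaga
Mmp10: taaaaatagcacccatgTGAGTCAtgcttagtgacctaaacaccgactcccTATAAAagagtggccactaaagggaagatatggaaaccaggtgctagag
The AP-1 letters begin 35 bases before the start in Mmp13 and 63 bases before it in Mmp10, and the TATA letters 16 and 29 bases before it. A match is a description of the letters and not a measurement of binding.

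The named markers of other cell types moved with these matrix genes, and their part in the matrix result was not tested. The fibroblast list also holds Col1a1, Col1a2 and Lum, given above as matrix genes. Part of the fibroblast counts and sums below thus rests on the same genes. Of 28 measured fibroblast markers, 8 were higher and none was lower than on every other array, and, by the probe that gave each gene its level, 25 were well above background on the tuft-only array, against 14 on the double-positive array and 17 on each of the Lgr5-only and double-negative arrays. Their summed signal, in units of the 75th percentile, was 70.1 on the tuft-only array, against 33.8, 35.1 and 27.5 on the double-positive, Lgr5-only and double-negative arrays. Pdgfrb, a receptor of fibroblasts and pericytes, was at -0.89 and Fap, the fibroblast activation protein gene, at -1.08 on the tuft-only array, both not well above background on the 3 others. Grem1, a secreted BMP antagonist of gut mesenchyme, was at -0.07 on the tuft-only array and -2.96 on the double-negative array, and not well above background on the other 2. Wnt2b and Rspo3, also on the fibroblast list, were not well above background on the tuft-only array, and 1 of the 2 probes for Bmp5 was. In bulk RNA, more cells of a type and more RNA per cell cannot be told apart.

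Of 18 endothelial markers, 3 were higher on the tuft-only array (Pecam1, Flt1 and Egfl7), and Cldn5, Erg and Pdpn were not well above background there. In all, 9 of the 18 had their highest level on the tuft-only array and 2, Robo4 and Ramp2, their lowest. Robo4 was at -2.28, against -1.87, -1.36 and -1.02 on the double-positive, Lgr5-only and double-negative arrays, and Ramp2 at -3.18, against -2.69, -2.97 and -2.67. Pecam1, an adhesion gene of endothelial and some blood cells, was at -0.39 on the tuft-only array, against -2.55, -2.15 and -2.35 on the double-positive, Lgr5-only and double-negative arrays. Cdh5, for the cadherin that defines endothelium, was at -2.99, near the lowest level measurable, and not well above background on the other arrays. The endothelial summed signal was 4.95 on the tuft-only array, against 2.76, 3.54 and 2.27 on the double-positive, Lgr5-only and double-negative arrays. Of 13 smooth muscle and pericyte markers, Synpo2 and Rgs5 were higher, while Acta2, the smooth muscle actin gene, was at 4.51, against 4.85, 4.93 and 5.31 on those arrays. Of 13 enteric neuron and glia markers, 1 was higher. That gene was Chl1, a neural adhesion gene of the L1 family, at 0.29 on the tuft-only array, against -3.28, -2.80 and -3.20 on the double-positive, Lgr5-only and double-negative arrays. The glial gene S100b and the neuronal gene Uchl1 were not well above background on the tuft-only array. Cyp1b1, a cytochrome P450 gene named here after its value was seen because it had the largest distance of the 693, was at 1.18 on the tuft-only array and -2.18 on the double-positive array, 10.3-fold apart, and not well above background on both tuft marker- arrays.

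Macrophage genes formed another block. Of 30 macrophage and monocyte markers, 14 were higher on the tuft-only array than on every other array and none was lower, and 28 had their highest level there, if by less than 1 log2 in some, against 6093 of 18506 over all genes. The list's medians were 1.0 log2 over the double-positive array, 4.67 log2 over the Lgr5-only array and 4.20 log2 over the double-negative array. Adgre1, the macrophage surface gene for F4/80, was at 2.90 on the tuft-only array, against 1.57 on the double-positive array and -2.21 on the double-negative array, and not well above background on the Lgr5-only array. Aif1, a calcium-binding gene of macrophages, was at 4.04, against 2.69, -2.45 and -0.38 on the double-positive, Lgr5-only and double-negative arrays. The scavenger receptor genes Cd163 and Marco were at 2.33 and 1.93 on the tuft-only array, against 0.67 and 0.11 on the double-positive array, -2.71 and -1.73 on the Lgr5-only array, and -2.55 and -2.58 on the double-negative array. Most of these genes were thus high in both tuft marker+ populations and highest in tuft-only cells. All 30 markers were well above background on both tuft marker+ arrays, against 18 on the Lgr5-only array and 25 on the double-negative array. Some bright probes were nearly flat over the 4 arrays, among them that of Itgam, at 9.33 against 9.32, 8.97 and 9.18, and that of Csf1r, at 4.85 against 4.68, 4.73 and 4.70, on the tuft-only, double-positive, Lgr5-only and double-negative arrays.

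Several further immune genes lay more than 2 log2 above every other array. Cd72, a coreceptor of B cells and some myeloid cells, was at 1.72 on the tuft-only array, against -0.87, -0.70 and -1.46 on the double-positive, Lgr5-only and double-negative arrays. Il10, the anti-inflammatory cytokine gene, was at 0.13, against -2.25, -2.69 and -2.44. Pla2g2d, a secreted phospholipase gene, was at 1.13, against -1.34, -1.18 and -1.59. These 3 genes differed little among the 3 other arrays and lay 5.35-fold, 5.21-fold and 4.95-fold above the nearest of them. Rnase6, for an antimicrobial ribonuclease, was at 0.81, against -2.14, -1.5 and -3.26. Klra2, a lectin-like receptor gene, was at 4.20 on the tuft-only array, against 1.91 on the double-positive array, -1.96 on the Lgr5-only array and -0.24 on the double-negative array. Klra17 was at -0.41 and not well above background elsewhere, but the Klra genes are near-identical copies that a probe may not separate. Fermt3, the kindlin gene of blood cells, was at -0.78 and Ackr3, a scavenging receptor for CXCL12, at -0.17, both not well above background on the 3 other arrays, at least 6.15-fold and 9.53-fold higher. Nxpe5, Xlr5a and the GABA receptor gene Gabra3 had the same pattern, at -0.63, -0.66 and -0.81 on the tuft-only array.

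The promoter of Cd72 is shown because it carries GAGGAAGT, the letters of a site for PU.1, a transcription factor of myeloid and B cells. The window lies at chr4:43454607-43454706 on the minus strand (GRCm38.p6), and the capitals mark that site, here as its reverse complement and 49 bases before the start.
Cd72: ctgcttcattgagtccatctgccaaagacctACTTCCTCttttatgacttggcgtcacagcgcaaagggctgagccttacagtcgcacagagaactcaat

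Of 32 chemokines and chemokine receptors, 16 were higher on the tuft-only array than on every other array and none was lower, with medians of 0.99, 1.59 and 1.64 log2 over the double-positive, Lgr5-only and double-negative arrays. Cxcl9, an interferon-gamma-induced attractant of T cells, was at 1.84 on the tuft-only array, against -0.51, -2.22 and -2.64 on the double-positive, Lgr5-only and double-negative arrays. It was 5.08-fold above the nearest array. The macrophage markers moved with the chemokine genes and with the complement genes below, and their part in those results was not tested. The macrophage list itself holds the chemokine receptor genes Ccr2 and Cx3cr1, the complement genes C1qa, C1qb and C1qc, and the protease genes Mmp12 and Mmp13. Cxcl9 likewise counts among both the chemokine and the interferon-induced genes. Lists that share genes move together in part for that reason. The monocyte attractants Ccl2 and Ccl7 were at 0.29 and -1.44 on the tuft-only array, against -0.80 for Ccl2 on the double-positive array, where Ccl7 was not well above background. Ccl4 was at 3.85, against 2.79, -1.68 and -0.75, and Ccl8 at 2.39, against 1.25 on the double-positive array. Cxcr4, the receptor for CXCL12, was at 3.84, against 2.10, -1.77 and -1.10, so both tuft marker+ populations were far above both tuft marker- ones. Il1b, for interleukin 1 beta, was at 3.22 on the tuft-only array, against 2.11, -1.53 and 0.20 on the double-positive, Lgr5-only and double-negative arrays, and was picked after its value was seen.

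Complement genes were higher in 7 of 20 cases and lower in none. C1ra, a protease of the classical pathway, was at 2.52, against 0.69, -1.45 and -0.82 on the double-positive, Lgr5-only and double-negative arrays. C1qa, part of the recognition complex C1q, was at 1.20 on the tuft-only array, against 0.13 on the double-positive array and -3.19 on the double-negative array, and was not well above background on the Lgr5-only array. The receptor genes C3ar1 and C5ar1 were at 3.93 and 2.67 on the tuft-only array, against 2.86 and 1.44 on the double-positive array. Interferon-induced genes were higher in 6 of 23 cases (Ifit2, Ifit3, Gbp2, Gbp3, Cxcl9 and Cxcl10) and lower in none. Gbp2, a guanylate-binding protein that acts on intracellular pathogens, was at 0.85, against -0.44, -3.65 and -2.26 on the double-positive, Lgr5-only and double-negative arrays. Of 9 measured guanylate-binding protein genes, 7 were higher, but these genes share long stretches of sequence and their probes may not be specific. The list's median over the double-positive array was 0.26 log2, well under those of 1.11 and 1.48 log2 over the Lgr5-only and double-negative arrays.

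Gbp3 is shown as a member whose promoter holds the core letters of an interferon response element, GAAA repeated after a gap of 2 bases of any kind. Gbp3 was at 0.20 on the tuft-only array, against -1.10 on the double-positive array, and not well above background on both tuft marker- arrays. Its window lies at chr3:142559964-142560063 on the plus strand (GRCm38.p6), with the reverse complement of the element in capitals, 45 bases before the start.
Gbp3: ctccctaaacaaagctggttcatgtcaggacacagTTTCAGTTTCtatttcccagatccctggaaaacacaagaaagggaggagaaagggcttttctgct

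**Figure D3:**
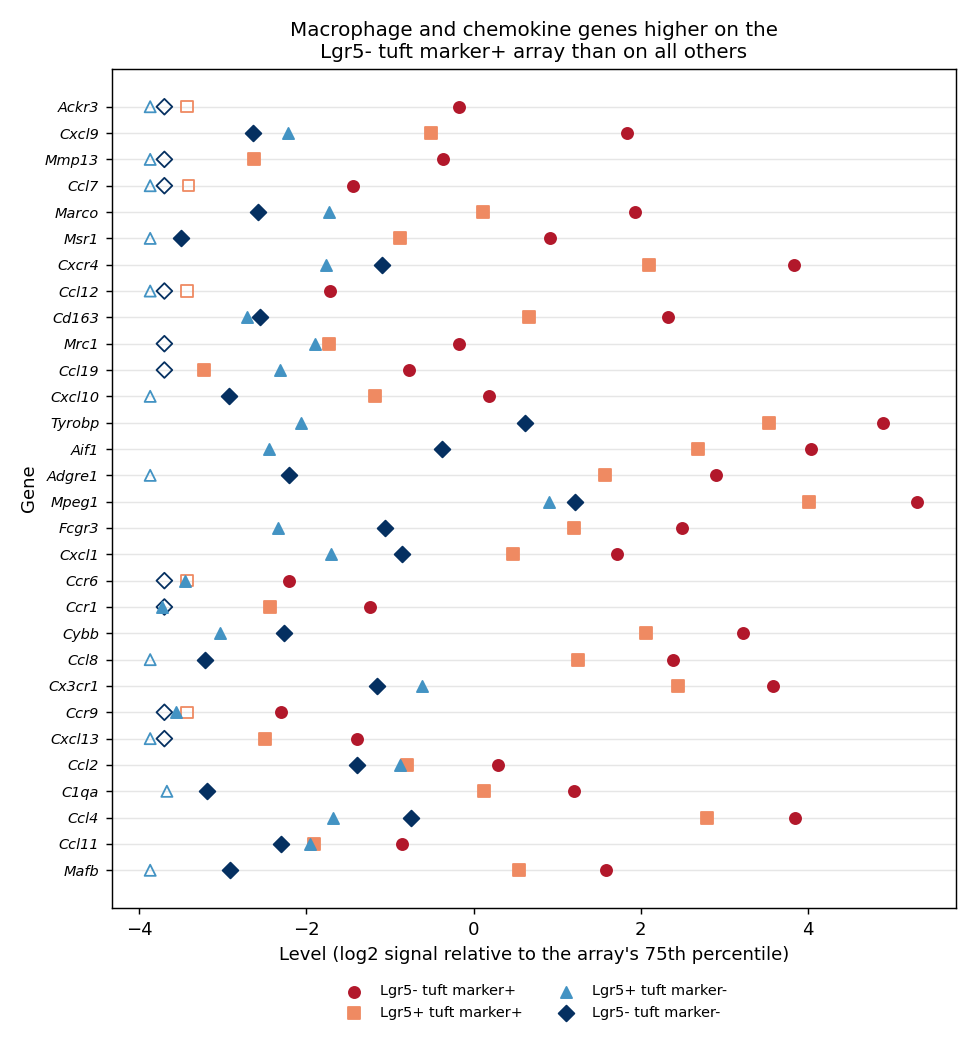
Level on the horizontal axis (log2 signal relative to the array's 75th percentile) of the macrophage, monocyte, chemokine and chemokine receptor genes higher on the Lgr5- tuft marker+ array than on all others, 1 row per gene. Filled symbols are well above background and open ones are not; for most genes the Lgr5+ tuft marker+ square is second, as for Cxcr4 at 2.10, and both tuft marker- arrays lie far to the left.

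Other leukocyte lists held fewer such genes. Of 23 T and NK cell markers, 4 were higher, among them Thy1, which is also on the fibroblast list. Gzma, the granzyme A gene, was at 2.63 on the tuft-only array, against -0.31, -0.53 and 1.29 on the double-positive, Lgr5-only and double-negative arrays. Of 17 B and plasma cell markers, 4 were higher. In this list 9 genes had their highest level on the tuft-only array and 4 their lowest, Sdc1 and Xbp1 among them. Sdc1 was at -0.52, against 0.32, 0.40 and 0.66 on the double-positive, Lgr5-only and double-negative arrays, and Xbp1 at 1.43, against 2.35, 1.98 and 1.84. Jchain, which joins IgA chains, was at 0.43, against -0.75 on the double-positive array and -3.63 on the double-negative array, and was not well above background on the Lgr5-only array. Of 17 mast cell and group 2 innate lymphoid markers, 3 were higher (Hdc, Rora and Klrg1). Hdc, the histamine-making enzyme, was at -0.59, against -2.80 on the double-positive array, while the mast cell receptor gene Kit was at -2.51, against 0.25 on that array, and the mast cell protease gene Cma1 was not well above background on the tuft-only array. Of 14 neutrophil and eosinophil markers, S100a9 and Prg2 were higher, and the neutrophil genes Retnlg and Ngp were not well above background. Of 18 dendritic cell markers, Cd83 and the class II gene H2-Aa were higher, with H2-Aa at 3.92, against 2.62, 1.99 and 2.31 on the double-positive, Lgr5-only and double-negative arrays. Of 11 erythroid and platelet markers, 1 was higher and 1 was lower. The higher one was Pf4, a platelet chemokine gene that macrophages also express, at 1.66 on the tuft-only array, against 0.09 on the double-positive array. The lower one was Tfrc, at 2.39, against 3.48, 3.64 and 3.94 on the double-positive, Lgr5-only and double-negative arrays.

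Tuft cell markers did not set the tuft-only array apart from the double-positive one. Of 37 measured markers, 2 were higher than on every other array, Gng13 and Ptprc, and none was lower. Against the double-positive array, 3 were at least 1 log2 higher and 1 was lower, where 11.5% and 8.93% of all genes were, and the list median was 0.04 log2. Against the Lgr5-only array 32 were higher and none lower, with 11.5% and 8.11% of all genes past the same limits, and against the double-negative array also 32 and none, with 16.4% and 12.4% of all genes. Dclk1, a kinase gene widely used as a tuft marker, was at 3.79 on the tuft-only array, against 4.20, 0.72 and -0.13 on the double-positive, Lgr5-only and double-negative arrays. Pou2f3, for the transcription factor that specifies tuft cells, was at 0.52, against 0.54, -0.90 and -2.13, and Trpm5, their taste channel, at 3.79, against 4.33, 0.87 and -1.84. Gng13, a G protein subunit of taste signalling, was at -1.59 on the tuft-only array and -3.40 on the Lgr5-only array, and not well above background on the other 2. Ptprc encodes CD45, which leukocytes carry as well as some tuft cells, and stood at 3.32 on the tuft-only array, against 1.81 on the double-positive array and -3.0 on the double-negative array, and not well above background on the Lgr5-only array. Tas1r3 and Chat were near level over the 4 arrays, with Chat at -0.06, against -0.16, -0.24 and -0.82 on the double-positive, Lgr5-only and double-negative arrays.

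Genes of epithelial-mesenchymal transition included 4 of 18 that were higher (Zeb2, Sparc, Mmp2 and Mmp9), and Vim, the vimentin gene, was at 2.61 on the tuft-only array, against 2.19, -2.49 and -2.47 on the double-positive, Lgr5-only and double-negative arrays. Of these genes, Sparc also stood on the matrix list and both Mmp genes on the protease list. Zeb2, a repressor of epithelial genes that macrophages express too, was at 3.1, against 1.61, -2.94 and -1.40. Of these 18 genes, 11 had their highest level on the tuft-only array and 2, Cdh11 and Acta2, their lowest. Cdh11 was at 0.52, against 1.37, 1.27 and 1.41 on the double-positive, Lgr5-only and double-negative arrays. Of 23 BMP and TGF-beta response genes, Grem1 and Ltbp1 were higher and none was lower. In this list 12 genes had their highest level on the tuft-only array and 3 their lowest, Id1 and Smad7 among them. Id1 was at 0.54, against 1.71 on the double-positive array, and Smad7 at -1.71, against -0.73 there. The list's medians were 0.09, 0.94 and 0.74 log2 over the double-positive, Lgr5-only and double-negative arrays. Immediate early and dissociation stress genes showed little difference, with 2 of 27 higher (Ier3 and Dusp2), none lower and medians of -0.08, 0.07 and 0.51 log2 over the double-positive, Lgr5-only and double-negative arrays. Fos was at 3.38 on the tuft-only array, against 3.59, 3.21 and 2.69 on those arrays.

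The lower genes with the longest distances were of mixed function. Tox3, a chromatin protein gene, was at -1.58 on the tuft-only array, against 1.27, 1.43 and 1.25 on the double-positive, Lgr5-only and double-negative arrays, and was 7.11-fold below the nearest. Pdia5, a disulfide isomerase gene of the endoplasmic reticulum, was at -3.20, against -0.33, 0.55 and -0.38. Fads2, the desaturase of polyunsaturated fatty acid synthesis, was at -0.79, against 1.5, 1.83 and 1.28. In all 3 the other arrays were close together and the tuft-only array lay well below them. Fam174b, Rtn4rl1, Tmem171, Lurap1l, Akap1, Stam2 and Fzd6, a Wnt receptor gene, were also at least 2 log2 below every other array, with tuft-only levels between -3.55 for Stam2 and -2.16 for Lurap1l. Reg4, a secreted lectin of deep crypt secretory cells, was at -2.05, against 0.22, 0.11 and 0.24. Liph, Foxk2, Slc25a35, Rcor1 and Plxna2 were well above background on the 3 other arrays and not on the tuft-only array, and were at least 3.46-fold lower there. The clone-named gene D630039A03Rik had the longest distance of the 441, not well above background on the tuft-only array, against -0.42, 1.48 and 0.38 on the double-positive, Lgr5-only and double-negative arrays, at least 9.54-fold lower.

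Goblet cell markers were lower in 9 of 20 cases and higher in none, with medians of -1.28, -2.04 and -1.44 log2 against the double-positive, Lgr5-only and double-negative arrays. Muc2, the main mucin of gut mucus, was at 1.33, against 2.99, 3.59 and 2.81 on those arrays, and Fcgbp, a mucus-binding protein gene, at 4.83, against 6.54, 7.31 and 6.54. Retnlb, for the goblet cell hormone RELM-beta, was at -0.79, against 1.30, 3.15 and 1.36. The Lgr5-only array was the highest for all 3, and the tuft-only array the lowest. Of 12 Paneth cell markers, Mmp7, Itln1, Mptx1 and Mptx2 were lower and none was higher. Mptx2, a pentraxin of Paneth cells, was at 1.40, against 4.85, 6.15 and 3.40 on the double-positive, Lgr5-only and double-negative arrays, and the closely related Mptx1 at -2.51, against 0.48, 2.07 and -0.92. Of 15 measured alpha-defensin genes, near-identical copies that probes may not separate, 4 were lower.

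Enteroendocrine markers were lower in 5 of 24 cases (Chga, Chgb, Neurod1, Nkx2-2 and Tac1). Chgb, a granule protein gene, was at 1.93 on the tuft-only array, against 3.92, 4.03 and 4.25 on the double-positive, Lgr5-only and double-negative arrays. Over the double-positive array the list median was 0.06 log2, against -0.64 and -0.80 log2 over the Lgr5-only and double-negative arrays, and against the double-positive array 4 of 23 genes were at least 1 log2 higher and 7 at least 1 log2 lower. Among 28 enterocyte markers, Mep1a, a brush border protease gene, was higher and Mgam, a starch-digesting enzyme gene, lower. These counts are near the 3.74% and 2.38% of all genes. The enterocyte medians were -0.90, 0.12 and -0.65 log2 against the double-positive, Lgr5-only and double-negative arrays. On the tuft-only array 12 of the 28 had their lowest level and 3 their highest, against 5280 and 6093 of 18506 over all genes. Amy2a5, a pancreatic amylase gene picked after its value was seen, was at 6.07 on the tuft-only array, against 5.01 on the Lgr5-only array and 3.04 on the double-negative array, and at -2.73 on the double-positive array. It was the brightest of the 693 higher genes and spread over more than 8 log2 among the 4 arrays.

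General epithelial genes were lower in 8 of 35 cases and higher in none, and 27 of the 35 had their lowest level on the tuft-only array, against 5280 of 18506 over all genes. Medians were -0.73, -0.70 and -0.93 log2 against the double-positive, Lgr5-only and double-negative arrays. The lower genes included the tight junction gene Ocln, the plakoglobin gene Jup, the splicing factor gene Esrp2, the trafficking gene Rab25 and the transcription factor genes Ovol1, Elf3 and Cdx1. Ocln was at -1.28, against -0.13, 0.39 and 0.93, and Elf3 at 2.21, against 3.23, 3.56 and 3.62 on those arrays. The keratin gene Krt18 did not follow them, at 6.77 on the tuft-only array, against 6.72, 5.08 and 5.19 on the double-positive, Lgr5-only and double-negative arrays. All 35 epithelial genes were well above background on the tuft-only array. Their summed signal was 375.37 on the tuft-only array, against 468.81, 354.06 and 412.35 on the double-positive, Lgr5-only and double-negative arrays. By sum the Lgr5-only array was thus the lowest. By median difference, the fibroblast and macrophage markers were highest where these epithelial genes were lowest. The part of those markers in the epithelial result was not tested.

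Crypt base stem cell genes were lower in 4 of 25 cases (Slc12a2, Prom1, Lrig1 and Mex3a) and higher in none, with medians of -0.77, -0.70 and -0.71 log2 against the double-positive, Lgr5-only and double-negative arrays. Lrig1, a restraint on growth factor receptors, was at -0.96, against 1.03, 1.41 and 0.58. Smoc2, a matrix protein gene of Lgr5+ stem cells, was at -2.48 on the tuft-only array, against -0.83 on the double-positive array, 0.01 on the Lgr5-only array and -1.56 on the double-negative array. Of 24 Wnt targets, Dkk3 was higher and Mmp7 lower, and Axin2, a direct target of beta-catenin, was at -1.21, against 0.02, -0.45 and 0.24. Notum, a Wnt inhibitor gene often induced by active beta-catenin, was at 3.24 on the tuft-only array, against 2.63, 3.05 and 2.65 on the double-positive, Lgr5-only and double-negative arrays. The Wnt list's medians were -0.05, -0.46 and -0.39 log2 against the double-positive, Lgr5-only and double-negative arrays, and 11 of the 24 genes had their lowest level on the tuft-only array and 5 their highest.

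**Figure D4:**
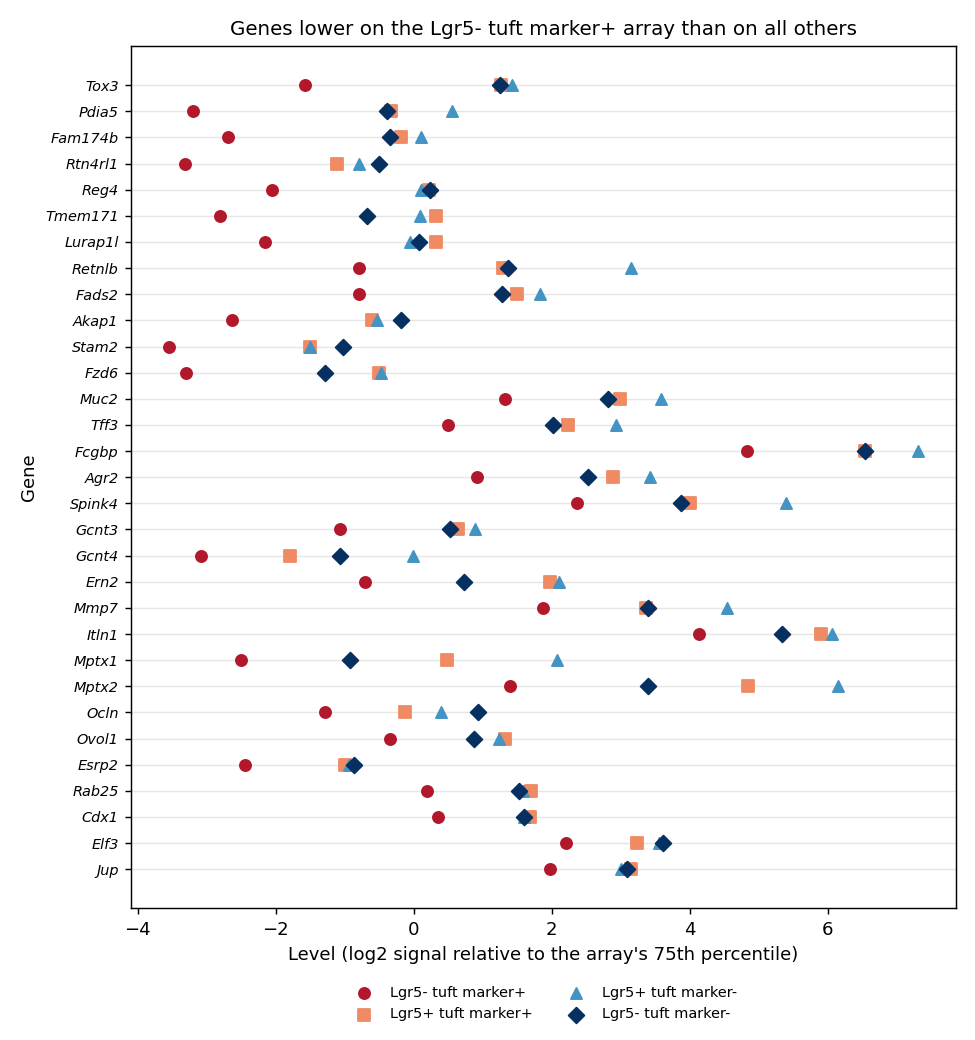
Level on the horizontal axis (log2 signal relative to the array's 75th percentile) of genes lower on the Lgr5- tuft marker+ array than on all others, 1 row per gene. From the top they are the 12 genes farthest below every other array among those well above background on all 4, then goblet and Paneth cell markers and general epithelial genes; the red circles lie to the left in every row, as for Tox3 at -1.58, and all symbols are well above background.

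No ribosomal or oxidative phosphorylation gene passed the 1 log2 rule, but most had their lowest level on the tuft-only array, where 5280 of 18506 over all genes did. Of 34 cytoplasmic ribosomal protein genes, 31 had their lowest level there, with medians of -0.58, -0.72 and -0.91 log2 against the double-positive, Lgr5-only and double-negative arrays. Of 30 oxidative phosphorylation genes, 28 were lowest on the tuft-only array, with medians of -0.60, -0.54 and -1.0 log2. Of 28 S phase genes 1 was lower, the replication helicase gene Mcm2, and of 29 G2/M phase genes 1, the mitotic kinase gene Nek2, counts near the 2.38% of all genes. The S phase medians were -0.09, -0.23 and -0.66 log2 and the G2/M medians -0.30, -0.55 and -1.06 log2 against the double-positive, Lgr5-only and double-negative arrays. Of 21 glycolysis genes, Ldhb, a lactate dehydrogenase gene, was higher, at 0.37 on the tuft-only array, against -1.80 on the double-positive array and -3.47 on the Lgr5-only array, and not well above background on the double-negative array. Xist was at 4.34 on the tuft-only array, against 4.80, 4.96 and 4.77, and the Y-linked gene Eif2s3y at -2.78, against -2.69, -1.70 and -1.14, on the double-positive, Lgr5-only and double-negative arrays. Both genes were well above background on all 4 arrays.

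**Figure D5:**
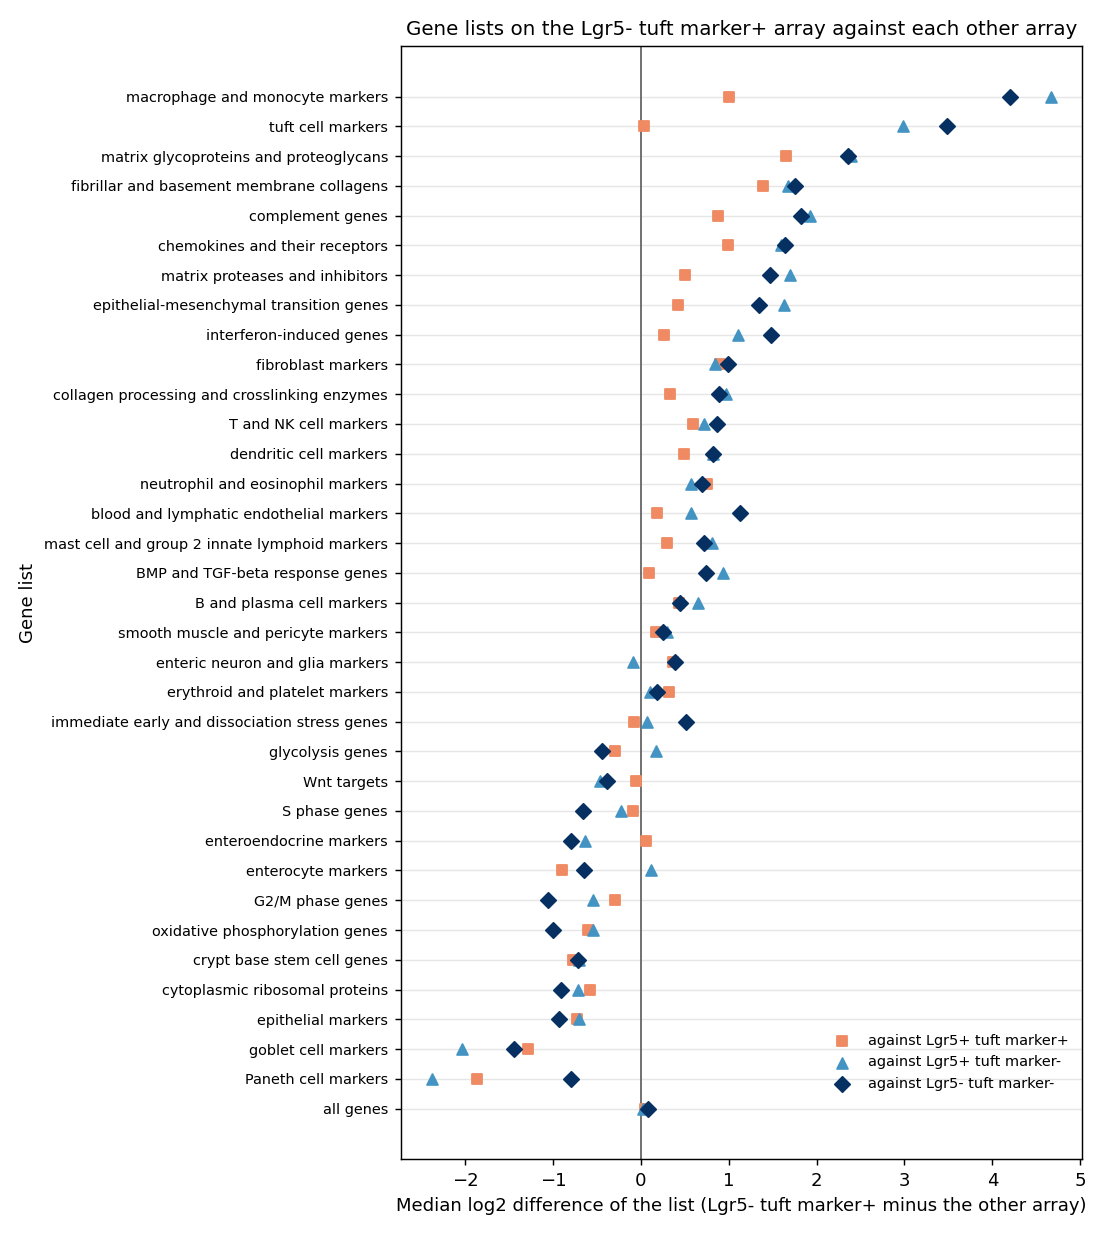
Median log2 difference of each gene list on the Lgr5- tuft marker+ array minus each of the 3 other arrays, 1 row per list and 1 symbol per other array. Macrophage markers lie at 1.0 against the Lgr5+ tuft marker+ array and above 4 against both tuft marker- arrays, goblet and Paneth lists lie at the bottom, and the bottom row gives all genes, near 0.

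Across all members, promoters of the higher and lower genes differed in base composition. RefSeq windows of 250 bases before to 50 bases after the start (GRCm38.p6) were matched for 525 of the 693 higher genes, 347 of the 441 lower genes and 14643 of the 18506 measured genes. The median ratio of observed to expected CpG was 0.32 in higher genes and 0.74 in lower genes, against 0.65 in all measured genes, and median GC content was 52.3% and 60.7%, against 57.7%. The AP-1 letters TGANTCA, sought on both strands, occurred in 11.4% of higher and 4.61% of lower windows, against 6.71% of all. The PU.1 letters GAGGAAGT occurred in 5.33% of higher and 2.59% of lower windows, against 3.15% of all. The interferon response element core occurred in 5.90% and 3.75%, against 3.35%, and TATAAA on either strand in 15.4% and 10.7%, against 11.3%. Base composition alone alters how often such letters occur, and its part was not tested.

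Col3a1, a higher gene, and Tox3, a lower one, are shown as examples that differ in CpG content, picked after their sequences were seen. Capitals mark each CG. The Col3a1 window at chr1:45311458-45311557 (plus strand) holds none, and the Tox3 window at chr8:90348233-90348332 (minus strand) holds 21 in its 100 bases, both in GRCm38.p6.
Col3a1: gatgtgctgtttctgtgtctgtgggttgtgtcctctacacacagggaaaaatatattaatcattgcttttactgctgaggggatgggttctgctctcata
Tox3: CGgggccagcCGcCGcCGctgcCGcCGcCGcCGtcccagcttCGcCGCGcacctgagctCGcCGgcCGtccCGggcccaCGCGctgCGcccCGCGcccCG

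Many members were dim on 1 or more arrays. For 415 of the 693 higher genes at least 1 of the 3 folds was a lower limit. On the tuft-only array, 25.3% of the higher genes lay within 2 log2 of the lowest level measurable, against 37.0% of all measured genes. For the lower genes, whose rule asks for a low level there, it was 50.1%. Of the 441 lower genes, 389 were well above background on all 4 arrays. Olfactory, vomeronasal and taste receptor genes, large families with many similar copies, gave 37 of the higher genes out of 704 measured (5.26%) and none of the lower ones. Genes with predicted or clone names gave 73 of the higher genes out of 1988 measured (3.67%). Over all measured genes 3.74% were higher, so the share for predicted or clone names was near that of all genes. Just inside the higher limit lay Pramel47 and St8sia1 and just outside it D830005E20Rik and Piezo2, while Hid1 and Atp10b lay just inside the lower limit and Gpam and Yars2 just outside it.

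Where a gene had more than 1 probe, the probes did not always give the same picture. Of the 225 higher genes with 2 or more probes, every probe met the rule in 48. Among 169 further probes of such genes that were above background, 68 met the rule (40.2%) and 136 lay above every other array (80.5%). For the lower genes, every probe met the rule in 30 of 183, and 123 of 173 further probes lay below every other array (71.1%).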

How the data were processed

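Single-colour Agilent arrays of 4 sorted populations were analysed, 1 per population, so samples were grouped by the labels and no replicate or test was possible. Per the file headers, the deposited signal intensity of each spot was already background-subtracted and was made with Feature Extraction 12.0.3.1, where the submitters' processing notes give version 11.5.1.1. The authors also deposited scaled intensity values, equal to each array's processed signal times 1 constant per array. Here, non-control spots without outlier flags were used, the intensity was divided by the array's 75th percentile, values were floored at the lowest level well above background, log2 was taken, and copies of a probe were averaged. Accessions were named through RefSeq (GRCm38.p6), and a gene was read from its probe with the highest mean level. A gene was called where it was at least 1 log2 above or below every other array. Genes are named by fixed rules, the leading 12 or 10 higher and 12 or 6 lower genes with and without background-level arrays, and the list members with the largest and smallest differences; genes outside these rules are marked or come from the lists. The members, gene lists and rules were chosen with earlier results of these data known. The code of the rule was checked on simulated arrays with known changes and small independent noise. Those arrays held no spread between mice or sorts, so the check does not measure how reliable the calls are. Alternatives changed the scaling, background correction, floor, detection flag, probe rule, threshold and set of arrays. Normexp correction (limma 3.58.1, R 4.3.3, offset 50) used median spot signals in place of mean ones. Other steps used Python 3.11.15, pandas 2.3.3 and NumPy 2.4.6. Errors cover the scanner only.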

Additional observations from a re-analysis of the deposited data

Results flagged for a closer look

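Between tuft marker+ and tuft marker- cells, 3 gene lists had median differences of at least 0.25 log2 in size and of opposite sign within the Lgr5- populations and within the Lgr5+ populations. The median difference of endothelial markers was 1.13 log2 within Lgr5- cells and -0.39 log2 within Lgr5+ cells, that of enterocyte markers -0.65 and 0.72 log2, and that of glycolysis genes -0.44 and 0.57 log2. A further 7 lists had opposite signs with 1 or both medians under 0.25 log2 in size. With 1 array per population these differences were not tested.

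Outside the named genes, 594 probes without a gene name were higher on the Lgr5- tuft marker+ array than on every other array, of 16784 such probes well above background on at least 1 array, and 145 were lower. By the same rule, 693 of 18506 named genes (3.74%) were higher and 441 (2.38%) were lower. The 594 are thus a share near that of the named genes, while the 145 are a smaller share than the 441 lower named genes. The probe A_55_P2145224 was at 2.45 on the Lgr5- tuft marker+ array and not well above background, or close to it, on the 3 others, at -3.01, -3.87 and -3.70.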

How the results depend on the processing

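No paired analysis was possible because each population has 1 array. The counts of 693 higher and 441 lower genes became 432 and 755 with scaling to the median, 1106 and 219 in the authors' scaled values, 209 and 64 after normexp and quantile normalization, 87 and 16 at 2 log2, and 48 and 30 where every probe of a gene with several had to meet the rule. With the scanner's looser flag for signal above background, 1148 were higher. Leaving out 1 other array gave 785 to 1496 higher and 582 to 897 lower genes, most without the Lgr5+ tuft marker+ array. That array's removal, and that of the Lgr5+ tuft marker- array (1331 and 748), moved both counts by over 1.5 times, by construction, since fewer arrays must be passed. The settings on every probe and on arrays left out were chosen after seeing the data. Median scaling shifted the median of all genes to -0.16, -0.17 and -0.10 log2 and the authors' scaling to 0.37, 0.21 and 0.25 log2 against the double-negative, double-positive and Lgr5-only arrays. Of the 209 genes higher after normexp and quantile normalization, 156 were among the 693, which is 22.5% of the 693. Of the 64 lower genes, 60 were among the 441, which is 13.6% of the 441. No named gene or list median changed sign where it had been called. In size, 75 of 280 gene values and 110 of 492 list values moved over all settings. Under normexp and quantile normalization most moved, with 37 gene values moved and 3 not, and 57 list values moved and 13 not. Dim genes limit what the arrays resolve, since 415 of the higher genes have only a lower limit for a fold.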
